A study of Arabidopsis thaliana with 12 samples.

Results

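Histone genes were followed through 4 classes of DNA content in nuclei of the Arabidopsis thaliana root cortex. The genes were 4 that code for the core histone H2B (HTB1, HTB4, HTB5 and HTB11) and 3 that code for linker histones (H1.1, H1.2 and H1.3). Each was chosen by name, with earlier results of these data known, so shares of all probe sets given beside the genes are a description. Each had exactly 1 single-gene probe set on the ATH1 array, so 7 of 13513 single-gene probe sets, and of 22746 tested in all, are described. The array annotation lists HTB5, H1.1 and H1.2 by the locus codes AT2G37470, AT1G06760 and AT2G30620, and H1.3 (AT2G18050) as HIS1-3. HTB1, HTB4 and HTB11 are AT1G07790, AT5G59910 and AT3G46030.

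All nuclei came from whole roots of plants 5 days old, in the Col-0 ecotype, that carried the reporter pCO2:YFP-H2B. They were grown in continuous light. Nuclei were sorted for the reporter's yellow fluorescence and for DNA content as well. The classes are 2C, 4C, 8C and 16C, with 3 arrays each that the labels call biological replicates. Roots were pooled for each preparation, and the labels do not name the plants or sorts behind an array, so the spread between arrays may be partly technical. The reporter is itself a fusion of a fluorescent protein to an H2B, and the labels do not say which H2B coding sequence it carries. Whether its transcript reaches an H2B probe set was not tested.

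H2B is one of the 4 core histones around which DNA is wound in the nucleosome. Linker histones bind where the DNA enters and leaves the nucleosome and make chromatin more compact. In plants H1.1 and H1.2 are the main linker histones, while H1.3 is a shorter variant known for its induction by drought and low light and for its presence in guard cells. Most core histone transcripts are made in S phase, when new DNA is packed. In the endocycle, rounds of S phase follow each other without division, which is how root cells reach DNA contents above 4C.

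Some arrays lay close to a class other than their own. That of 8C replicate 2 correlated across probe sets at r = 0.9865 with 16C replicate 3, above 0.9738 and 0.9794 with the other 8C arrays. Each 2C array was closest to a 4C array, with r of 0.9421, 0.9744 and 0.9775 for replicates 1, 2 and 3. Their highest values with another 2C array were 0.941, 0.9735 and 0.9735. The array of 4C replicate 3 gave 0.9775 with 2C replicate 3 and 0.9767 with 16C replicate 3. With the other 4C arrays it gave 0.9761 and 0.9701. Those of 16C replicates 1 and 2 correlated at 0.9963, more than any other pair, and averaging them is one of the alternatives in the closing section. Of the cortex markers, CO2, whose promoter drives the reporter, had class means of 4.03, 4.25, 4.02 and 4.14 (log2) from 2C to 16C, at the 19.6th percentile of all probe sets. JKD, a transcription factor of the ground tissue, had 5.51, 5.94, 6.34 and 5.70. JKD differed between classes (limma F test, adjusted p = 0.00485), while CO2 did not (0.746). Of 4 endodermis markers 1 was measured, SGN3, with 4.82, 5.68, 5.28 and 5.00, and it also differed (limma F test, adjusted p = 0.0449). Of 5 markers of epidermis and root hairs 2 were measured, EXPA7 and EXPA18, and both rose in 16C against 8C (0.79 and 0.80, limma adjusted p = 0.03 and 0.024). The part of these markers in the histone values was not tested.

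All 7 histone genes had their highest class mean in 2C and their lowest in 8C, with 4C and 16C between. This order of means, 2C, 4C, 16C and 8C from high to low, was found in 11.2% of all probe sets, and a lowest mean in 8C in 23.7%. By limma's moderated F test with Benjamini-Hochberg adjustment, 6 of the 7 differed between classes, where 17.3% of all probe sets did. The exception was HTB1 (adjusted p = 0.0634). All 8C arrays lay below all 2C and 4C arrays for 6 genes, HTB11 being the exception, against 10.1% of probe sets. In these bulk samples, fewer nuclei with a transcript and less of it per nucleus cannot be told apart. The plot of values by array shows this dip in each of the 7 panels.

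**Figure D1:**
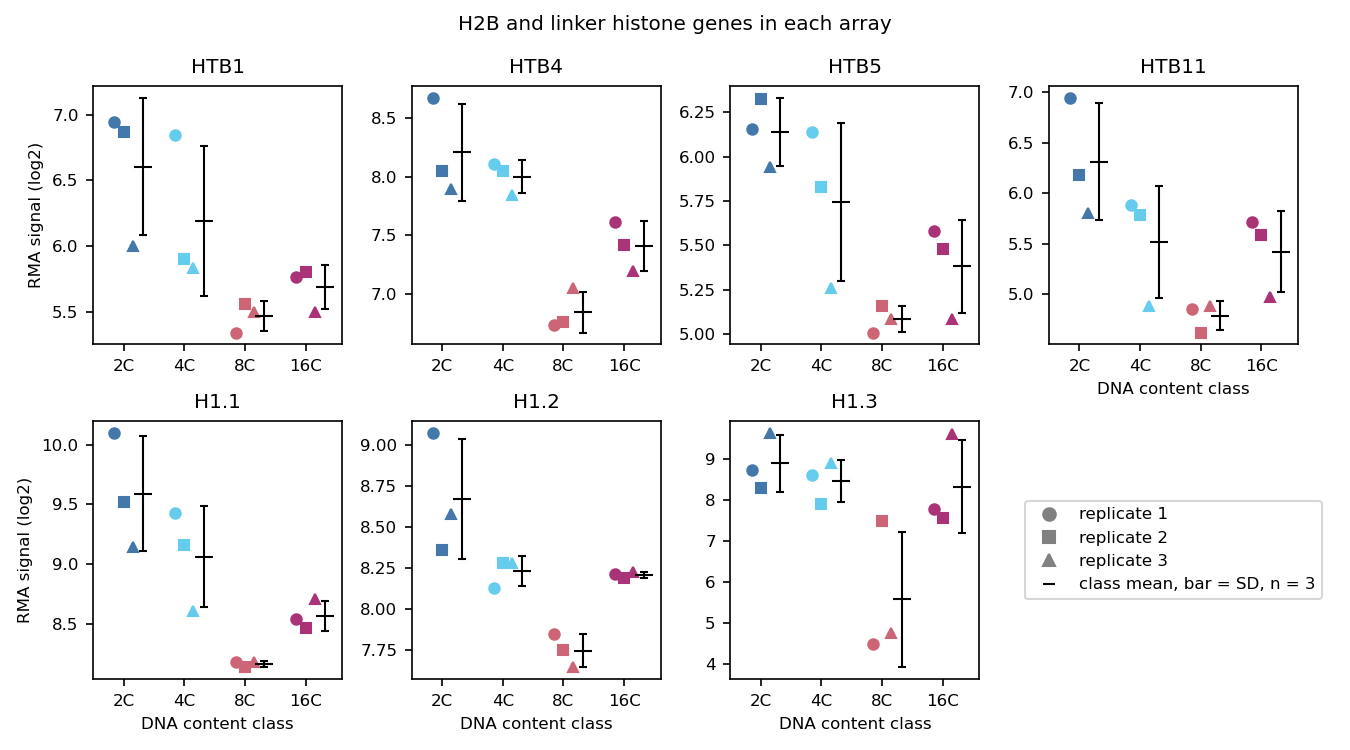
RMA signal (log2) of the 7 histone genes in each of the 12 arrays, by DNA content class. Circles, squares and triangles are replicates 1, 2 and 3, and black bars are class means with SD (n = 3). The 8C arrays are the lowest or among the lowest in every panel, and H1.3 has the widest spread, between 4.49 and 7.48 in 8C.

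Among the H2B genes, HTB4 had the clearest course. Its signal was 8.67, 8.05 and 7.90 (log2) in the 2C arrays. The 4C arrays gave 8.11, 8.05 and 7.84, the 8C arrays 6.74, 6.76 and 7.05 and the 16C arrays 7.62, 7.42 and 7.20. The 2C and 4C arrays overlapped, the 8C arrays lay below all others, and the 16C arrays lay between. HTB4 averaged 6.85 ± 0.17 in 8C and 8.00 ± 0.14 in 4C (SD, n = 3 each), 2.22-fold lower, with a log2 change of -1.15 ± 0.20 (SE; adjusted p = 0.00745 by limma). In 16C it averaged 7.41 ± 0.21, a change from 8C of 0.56 ± 0.20 that did not pass (limma adjusted p = 0.319).

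HTB5 had 6.15, 6.33 and 5.94 in the 2C arrays. Its 4C arrays had 6.14, 5.83 and 5.26, the 8C arrays 5.01, 5.16 and 5.09 and the 16C arrays 5.58, 5.48 and 5.08. Its 8C arrays were close together, and 16C replicate 3 lay among them. HTB11 had 6.95, 6.18 and 5.81 in the 2C arrays. The 4C arrays gave 5.89, 5.79 and 4.88, the 8C arrays 4.85, 4.62 and 4.89 and the 16C arrays 5.72, 5.58 and 4.97. Here 4C replicate 3 was as low as the 8C arrays. Both differed between classes (F test, limma adjusted p = 0.0245 for HTB5 and 0.0455 for HTB11). Without 1 array the F test of HTB5 passed in 8 of 12 cases and that of HTB11 in 3 of 12, with adjusted p of 0.0231 to 0.105 for HTB11. HTB5 did not pass without 2C replicate 1, 2C replicate 2, 8C replicate 1 or 8C replicate 3 (up to 0.0682). HTB11 passed without 2C replicate 3, 4C replicate 3 or 16C replicate 3.

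HTB1 had 6.95, 6.87 and 6.0 in the 2C arrays. Its 4C arrays had 6.85, 5.90 and 5.83, the 8C arrays 5.35, 5.57 and 5.50 and the 16C arrays 5.77, 5.81 and 5.50. In 4C, replicates 2 and 3 lay below the lowest 2C array and replicate 1 above it, and the 16C arrays touched the 8C range. The F test of HTB1 passed without 2C replicate 3 or 4C replicate 1 (limma adjusted p = 0.0177 and 0.0335). The mean signals of HTB1, HTB5 and HTB11 lay between the 53.0th and 59.9th percentile of all probe sets. At such signals background can make a fold change on the array smaller than the true one, which was not tested for these genes. Whether transcripts of other H2B genes bind the probes of any of the 4 was not tested.

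Of the linker histones, H1.1 had 10.10, 9.52 and 9.15 in the 2C arrays. The 4C arrays gave 9.43, 9.16 and 8.61, the 8C arrays 8.18, 8.14 and 8.19 and the 16C arrays 8.54, 8.47 and 8.71. The 8C arrays were close together and lay below all others. H1.1 averaged 8.17 ± 0.03 in 8C and 9.06 ± 0.42 in 4C (SD, n = 3 each), 1.86-fold lower, with a log2 change of -0.90 ± 0.24 (SE; adjusted p = 0.0444 by limma). It passed in only 3 of 12 fits that each left out 1 array (adjusted p 0.015 to 0.163). These were the fits without 2C replicate 1, 2C replicate 3 or 4C replicate 3.

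H1.2 had 9.07, 8.36 and 8.58 in the 2C arrays. Its 4C arrays had 8.12, 8.28 and 8.28, the 8C arrays 7.85, 7.75 and 7.64 and the 16C arrays 8.21, 8.18 and 8.22. All 4C arrays lay below all 2C arrays, and the 16C arrays lay within the 4C range. H1.2 averaged 7.74 ± 0.10 in 8C and 8.23 ± 0.09 in 4C (SD, n = 3 each), a change of -0.48 ± 0.16 that did not pass (SE, limma adjusted p = 0.0794) but did without 2C replicate 1 or 2C replicate 2 (0.0113 and 0.0442). Its F test did (limma adjusted p = 0.0139), and it passed without any 1 array.

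H1.3 had the deepest dip and the most uneven arrays. Its signal was 8.72, 8.30 and 9.64 in the 2C arrays. The 4C arrays gave 8.61, 7.89 and 8.90, the 8C arrays 4.49, 7.48 and 4.76 and the 16C arrays 7.78, 7.56 and 9.61. In 8C, replicates 1 and 3 were far below every other array, whereas replicate 2 lay close below the lowest 16C array. H1.3 averaged 5.58 ± 1.65 in 8C and 8.46 ± 0.52 in 4C (SD, n = 3 each), 7.40-fold lower, with a log2 change of -2.89 ± 0.79 (SE; adjusted p = 0.0453 by limma). In 16C it averaged 8.32 ± 1.13, a change from 8C of 2.74 ± 0.79 (limma adjusted p = 0.233).

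The size of this dip differed with 8C replicate 2, the array that resembled 16C replicate 3. Such likeness to another class was not limited to 8C replicate 2. Without 8C replicate 2 the change of H1.3 in 8C against 4C was -3.84 (limma adjusted p = 0.00969). The change was -2.35 and -2.48 without 8C replicate 1 and replicate 3, with adjusted p of 0.152 and 0.135. The change did not pass either without 2C replicate 2, any of the 4C arrays, 16C replicate 1 or 16C replicate 2 (adjusted p 0.054 to 0.136). It passed in 13 of 25 alternatives in all, that of H1.1 in 11 and that of HTB4 in 23. The F test of H1.3 (limma adjusted p = 0.0416) passed without 8C replicate 2 or 16C replicate 3 and in no other of the 12 fits that left out 1 array. With both 8C replicate 2 and 16C replicate 3 left out, a choice made after seeing the data, the change was -3.84 with adjusted p = 0.00395.

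**Figure D2:**
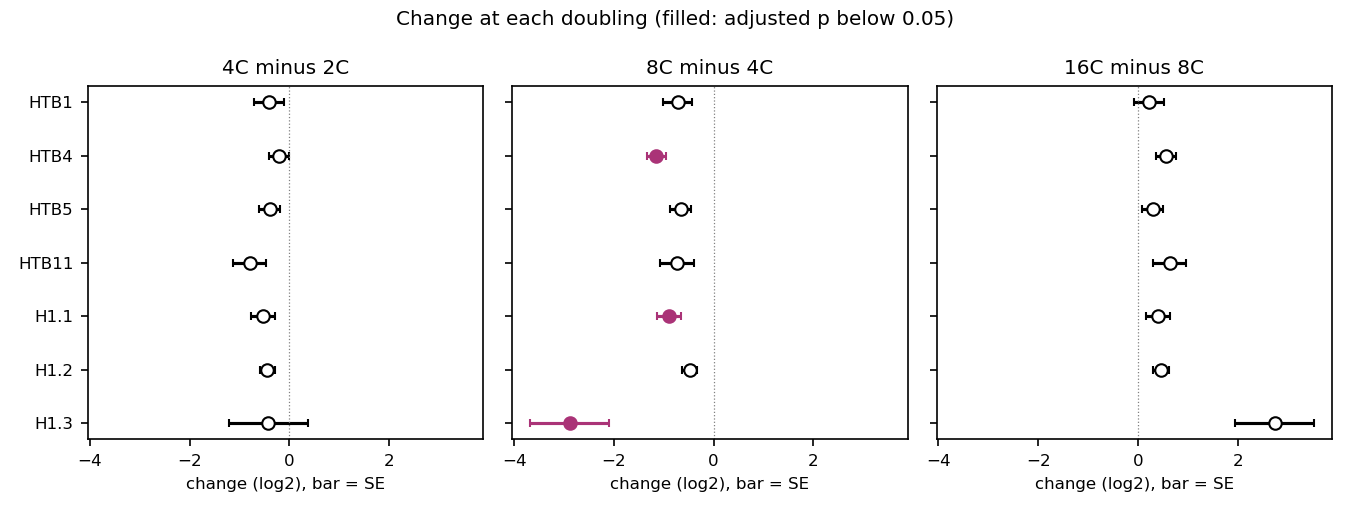
Change (log2) of each histone gene in 4C minus 2C, 8C minus 4C and 16C minus 8C, with SE. Filled points passed limma's test at an adjusted p below 0.05. All 7 points lie below zero in the first 2 panels and above zero in the third, and the 3 filled points are HTB4, H1.1 and H1.3 in 8C minus 4C.

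Over the steps, the changes were thus alike in sign and unequal in support. In 4C against 2C all 7 genes were lower with a median of -0.42, against 0.0044 over all probe sets. Of the 7, 0 passed limma's test, where 0.602% of probe sets did. In 8C against 4C all 7 were lower with a median of -0.73, against 0.04, and 3 passed as lower, where 5.17% of probe sets did. In 16C against 8C all 7 were higher with a median of 0.46, against -0.01, and 0 passed by limma, where 0.259% of probe sets did. With array weights 2 genes passed in this last step. The 16C arrays lay above all 8C arrays for 5 genes, against 10.2% of probe sets. Comparisons of neighbouring steps share a class, so a high or low value there enters both with opposite sign.

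Set against 2C, the 16C class was lower for all 7 genes by the mean. In 16C against 2C, 3 genes passed as lower, where 8.05% of probe sets did. They were HTB4 (-0.79 ± 0.20, limma adjusted p = 0.0235), HTB5 (-0.76 ± 0.21, 0.0385) and H1.1 (-1.02 ± 0.24, 0.0205). This count was 0 without 16C replicate 2, 1 without 16C replicate 1 or 16C replicate 3, and 5 without 2C replicate 3. The number of all probe sets passing in either direction moved as well. It was 1598 without 16C replicate 2, 1688 without 16C replicate 1, 2186 without 16C replicate 3 and 3964 without 2C replicate 3, against 3238 with all arrays. All 16C arrays lay below all 2C arrays for 6 genes, against 16.8% of probe sets, with H1.3 the exception. In 16C against 4C, all 16C arrays lay below all 4C arrays for 2 genes, HTB1 and HTB4, where 13.5% of probe sets did so.

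A straight line was also fitted per doubling of DNA content. The 6 genes other than H1.3 fell along it, where 11.7% of all probe sets did, with slopes between -0.39 for H1.1 and -0.19 for H1.2. H1.3 had a slope of -0.46 ± 0.25 (SE, limma adjusted p = 0.212), with means of 8.89 in 2C and 8.32 in 16C. Without both 8C replicate 2 and 16C replicate 3 it was -0.75 with adjusted p = 0.00739. The slopes of HTB4, HTB5 and H1.1 passed without any 1 array. That of H1.2 did not pass without any one of the 16C arrays (adjusted p up to 0.0673). For HTB1 it did not pass in 5 of 12 such fits, those without 2C replicate 1, without 2C replicate 2 and without each 16C array (adjusted p up to 0.0758). The slope of HTB11 passed in 2 of 12, without 2C replicate 3 and without 4C replicate 3.

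Core and linker histones were set side by side as changes from each gene's own 2C mean, a description with no test. In 8C the 4 H2B genes averaged -1.27 ± 0.07 and H1.1 with H1.2 averaged -1.17 ± 0.05 (SD over 3 arrays). In 16C these means were -0.84 ± 0.26 and -0.74 ± 0.07, and in 4C -0.45 ± 0.40 and -0.48 ± 0.18. H2B minus H1.1 and H1.2 was 0.03 ± 0.23 in 4C, -0.10 ± 0.12 in 8C and -0.10 ± 0.32 in 16C, in each class less than the spread between arrays. Over all 3 linker genes, H1.3 included, the linker mean in 8C was -1.89 ± 0.54. H2B minus this mean was 0.01 ± 0.36 in 4C, 0.62 ± 0.56 in 8C and -0.16 ± 0.67 in 16C, so in 8C it was larger than the spread. The lowest of the 8C arrays was at -0.03. The median slope was -0.34 for the 4 H2B genes and -0.39 for the 3 linker genes, and in 8C against 4C the medians were -0.73 and -0.90.

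H1.3 stood apart from H1.1 and H1.2 in size, but the difference did not pass. The per-array difference H1.3 minus H1.1 had class means from 2C to 16C of -0.70 ± 1.04, -0.60 ± 0.80, -2.59 ± 1.68 and -0.25 ± 1.01 (SD, n = 3). Its 8C arrays read -3.69, -0.66 and -3.43, the middle one being replicate 2. Exact permutation, in which the class labels took each of 369600 arrangements, gave p = 0.151 (adjusted p = 0.151 over 3 pairs). H1.3 minus H1.2 had class means of 0.22 ± 0.74, 0.23 ± 0.55, -2.17 ± 1.66 and 0.11 ± 1.11, with p = 0.099 by the same exact test and 0.151 after adjustment. Without 8C replicate 2 both differences passed, each with adjusted p = 0.0293, and neither passed without any other single array.

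The main linker histones were also set against each other. H1.1 minus H1.2 was 1.03, 1.16 and 0.57 in the 2C arrays. It was 1.3, 0.88 and 0.33 in 4C, against which the 8C arrays read 0.34, 0.39 and 0.54 and the 16C arrays 0.33, 0.28 and 0.49. The difference was lower in 8C and 16C than in most 2C and 4C arrays, with 4C replicate 3 as the low one there. The exact permutation test did not pass (p = 0.112, adjusted p = 0.151 over 3 pairs). These 3 p-values cannot show that the linker genes take the same course.

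**Figure D3:**
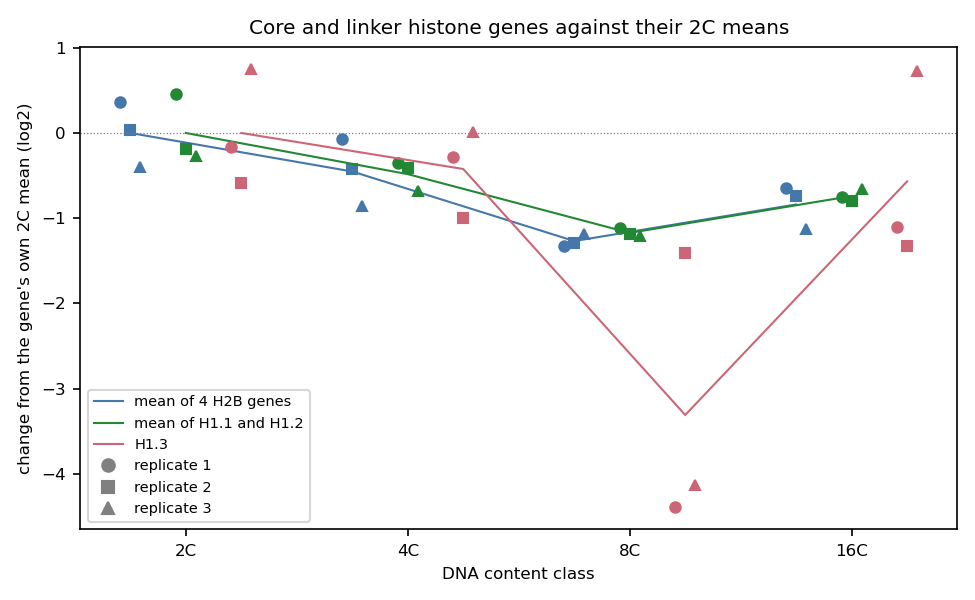
Change (log2) from each gene's own 2C mean by DNA content class, for the mean of 4 H2B genes, the mean of H1.1 and H1.2, and H1.3. Points are arrays, with circles, squares and triangles for replicates 1, 2 and 3, and lines join class means. The blue and green lines nearly coincide, with 8C means of -1.27 and -1.17, whereas H1.3 has an 8C mean of -3.31.

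Control measures differed between the classes, and not all in the same order. The actin 3′ minus 5′ difference, which grows as transcripts are shortened at the 5′ end, averaged 4.55 ± 0.16, 3.90 ± 0.11, 3.42 ± 0.12 and 3.80 ± 0.17 from 2C to 16C (log2, SD, n = 3). Its order of classes is that of the histone genes. The same difference for GAPDH averaged 4.85 ± 0.38, 5.20 ± 0.32, 5.05 ± 0.17 and 5.58 ± 0.09, lowest in 2C and highest in 16C, which is not their order. Over the 12 arrays the 7 genes correlated with the actin difference at r = 0.68 to 0.90, as a description in which both follow the classes. Of all probe sets, 15.4% correlated with the actin difference at r over 0.6. The deviations of the 7 genes from class means correlated with those of the actin difference at r = 0.22 to 0.53.

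With the actin difference as a covariate, 0 of the 7 genes passed limma's F test, and of all 22746 probe sets 162 passed it, against 3932 without the covariate. In 8C against 4C 0 of all probe sets passed with it, against 2251 without, so calls were lost across the whole array. The fitted difference in 8C against 4C was then -0.68 for HTB4, -0.55 for H1.1 and -2.07 for H1.3 (limma adjusted p = 0.673, 0.847 and 0.82), and 0.0034 for HTB11. The actin difference itself followed the classes, with class means from 3.42 to 4.55 and SD of 0.11 to 0.17 within them. A fit with both therefore cannot tell actin difference and class apart. The poly-A spikes, bacterial transcripts added to each RNA sample, averaged 10.87, 10.51, 9.0 and 8.94 from 2C to 16C. In 8C they reached 10.2 in replicate 3 and 8.19 in replicate 2, while H1.1 had 8.19 and 8.14 in these arrays and H1.3 had 4.76 and 7.48. In 8C replicate 1 the spikes were also low, at 8.58, with H1.1 at 8.18 and H1.3 at 4.49. Over the 12 arrays the H2B genes correlated with the spikes at r = 0.69 to 0.83, H1.1 at 0.75, H1.2 at 0.47 and H1.3 at 0.26, both measures following the classes. For deviations from class means r was 0.38 to 0.56 for the H2B genes, 0.22 for H1.1, -0.48 for H1.2 and -0.64 for H1.3. With the spikes as a covariate, H1.3 alone of the 7 passed the F test (limma adjusted p = 0.0483), and 679 of all probe sets did. The part of RNA quality in the histone results was not tested.

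**Figure D4:**
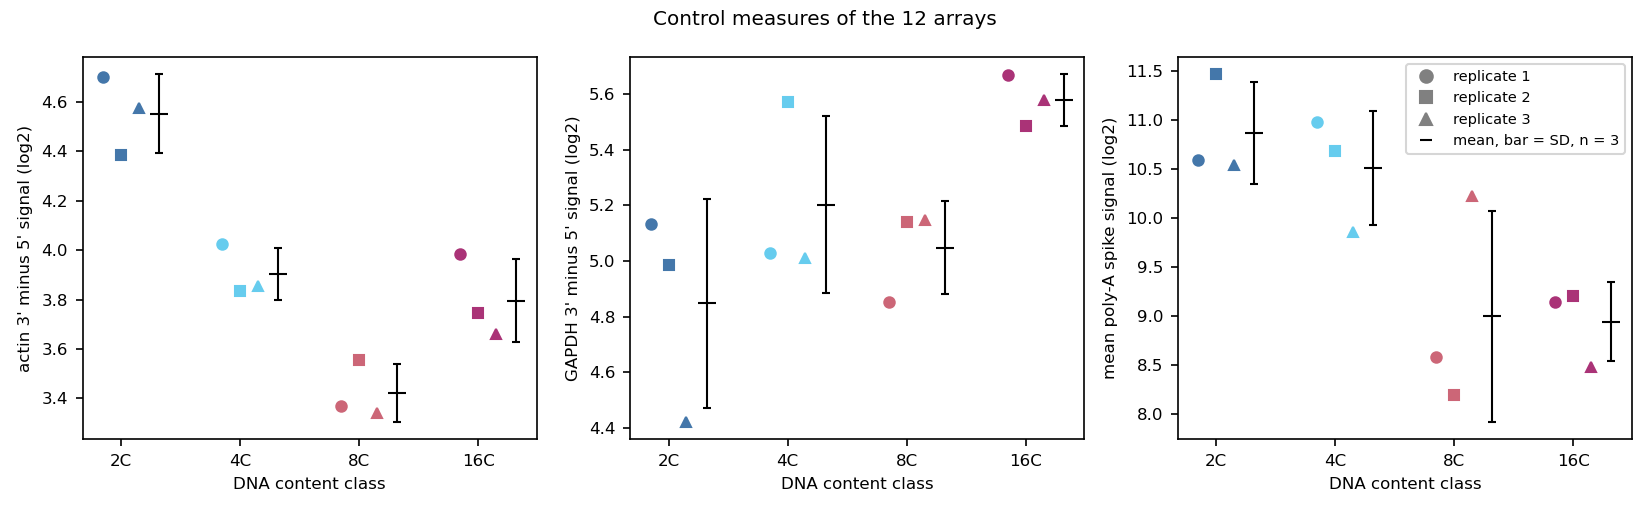
Actin (left) and GAPDH (middle) 3′ minus 5′ signal and mean signal of the poly-A spikes (right), all log2, in each array by DNA content class. Symbols are replicates 1 to 3 and black bars are means with SD (n = 3). The actin difference is lowest in 8C, with a mean of 3.42, the GAPDH difference is lowest in 2C, with a mean of 4.85, and the spikes are low in both 8C and 16C, apart from 8C replicate 3 at 10.2.

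Other histone genes gave no call. Of 11 H2B genes listed, 9 had a single-gene probe set, the 4 above and 5 others. Of these 5, 0 passed limma's F test (adjusted p from 0.158 for HTB3). HTB2 averaged 5.08, 4.93, 4.43 and 4.48 from 2C to 16C, and HTB3 6.34, 5.41, 5.39 and 5.97, both lowest in 8C. HTB7, HTB8 and HTB10 had class means between 3.89 and 4.99 and were lowest in 4C. All 5 were at or below the 56.9th percentile of probe sets by mean signal, and whether background hid a change there was not tested.

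The whole list of other core histones had 42 genes, of which 10 were measured and 0 passed the F test (limma, 0 also on the slope and in 8C against 4C). Their median slope was 0.0015 and their median change in 8C against 4C was -0.0009. Besides the H2B genes these were 5 H3 genes, among them the centromeric H3 variant HTR12, with 4.19, 4.36, 4.06 and 4.06 (F test, limma adjusted p = 0.225). By mean signal the 5 H3 genes lay between percentiles 0.22 and 44.9 of all probe sets. Whether background hid a change in them, and so drew these medians toward zero, was not tested. None of the listed H2A and H4 genes was measured by a single-gene probe set. HTB1, HTB4 and HTB11 each have another listed histone gene within 5 genes on the chromosome, in the TAIR10.1 gene order, and these neighbours were not measured here.

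Of 14 histone chaperones, which hand histones to DNA, 3 were measured and 1 passed. NASP, a chaperone of H3 and H4, averaged 7.05, 6.62, 6.66 and 6.38 from 2C to 16C (slope -0.20 ± 0.04, SE, limma adjusted p = 0.00727), so it was lowest in 16C and not in 8C. ASF1A and ASF1B did not pass the F test (adjusted p = 0.184 and 0.128). Of 19 replication genes 2 were measured and both passed. MCM7, a subunit of the replicative helicase, averaged 7.68, 5.52, 4.30 and 4.88, and ICU2, of DNA polymerase alpha, 5.38, 4.32, 3.87 and 3.89. Both had their lowest mean in 8C, as did all 4 measured mitotic genes of 13, of which 3 passed the F test. The mitotic Aurora kinase AUR2 averaged 7.18, 8.99, 5.75 and 7.27, so it peaked in 4C, whereas the 7 H2B and linker genes had their highest means in 2C.

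For H1.3, genes of drought and of guard cells were set beside it. Of 22 genes of the drought and abscisic acid response, 4 were measured and 0 passed limma's F test, with 0 at an unadjusted p below 0.05. COR15A, a cold and drought induced gene with the lowest p of the 4, averaged 3.97, 3.84, 4.05 and 4.13 from 2C to 16C (limma adjusted p = 0.235). The guard cell regulators SPCH, MUTE and FAMA had class means between 3.88 and 4.82 and did not pass. None of these 7 genes had its lowest mean in 8C. By mean signal COR15A, COR15B and the guard cell regulators lay at or below the 37.0th percentile of all probe sets. Whether background hid a change in them was not tested. The drought genes COR47 and LTI30 lay at percentiles 99.9 and 99.3. From 2C to 16C COR47 averaged 13.10, 12.95, 12.92 and 12.80, and LTI30 11.50, 10.93, 11.40 and 11.27 (F test, limma adjusted p = 0.728 and 0.519).

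The courses of the 7 genes were also compared with each other and with every single-gene probe set, as Pearson's r over 12 arrays. The 6 pairs of H2B genes correlated at 0.85 to 0.92, and H1.3 with any other gene at 0.42 to 0.68. Among the 6 genes other than H1.3, the 15 pairs correlated at 0.66 to 0.92. The lowest were H1.2 with HTB1 (0.66) and with HTB5 (0.68), which reach the range of H1.3. The genes most like HTB4 were AT2G47440, AT1G72090 and AT1G11860 (r = 0.983, 0.982 and 0.980), and those most like H1.1 were AT3G42660, AT1G72810 and AT4G37250 (0.982, 0.981 and 0.975). AT3G53990, AT3G29140 and AT4G23680 were most like H1.3 (0.951, 0.941 and 0.911), with 8C means of 7.57, 6.90 and 5.01 and 4C means of 8.48, 7.78 and 6.30. LCR68 was the gene most like HTB11 (0.960), AT1G47340 most like HTB1 (0.963), AT5G08350 most like HTB5 (0.970) and AT2G32520 most like H1.2 (0.956). Such likeness holds all that the arrays share, RNA quality included.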

How the data were processed

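The deposited log2 signals per probe set come from ATH1 arrays and were made with RMA, per the submitters' processing notes, which give no version or settings. Per the series' design text, RNA of sorted nuclei was amplified in 2 rounds. Array medians lay between 5.22 and 5.36, so differences in total RNA per nucleus are not seen. The number of arrays limits the precision.

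Without 64 control probe sets, 22746 were fitted with limma 3.58.1 (R 4.3.3) over all 12 arrays, with no block and Benjamini-Hochberg adjustment over every probe set, at a threshold of 0.05. The 2C arrays were the most spread by their correlations across probe sets (r from 0.9374). Of the 7 genes, HTB1 and HTB5 had their largest SD in 4C, H1.3 in 8C and the others in 2C. The shared spread does not follow such differences. Linker pairs were compared by exact permutation of the between-class sum of squares. Of 13513 single-gene probe sets, 13436 matched the TAIR10.1 gene table. Scripts were tested on simulated data.

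Members, lists and alternatives were chosen with earlier results of these data known. Named genes were the members, the single-gene probe sets with the highest r to each, and up to 3 genes per list by the F test. HTB2, HTR12 and the other H2B genes were named after their values were seen. Alternatives were a fixed or random block by replicate number, a variance trend, array weights, leaving out the dimmest 40%, single-gene probe sets alone, cyclic loess, scaling to 4 reference genes, only the arrays compared, actin or spike covariates, averaging 16C replicates 1 and 2, and leaving out each array. Leaving out 8C replicate 2 and 16C replicate 3 together was chosen after seeing the data. Each member has 1 probe set, so averaging did not apply. Sequences were not used here.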

Additional observations from a re-analysis of the deposited data

How the results depend on the processing

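Counts are of the 7 histone genes passing limma's test, with the number of all 22746 probe sets passing in brackets. In 8C against 4C (3 genes [2251]) the count was 0 [0] with the actin covariate, 1 [381] with the spike covariate, 1 [1612] with 16C replicates 1 and 2 averaged, 5 [3372] with array weights, and 1 to 4 [766 to 3229] without 1 array. For the F test (6 [3932]) it was 0 [162] with the actin covariate, 1 [679] with the spike covariate, 3 [2725] without both 8C replicate 2 and 16C replicate 3, and 3 to 6 [2581 to 4306] without 1 array. Along the trend (6 [4894]) it was 0 [0] with actin, 0 [725] with spikes, 3 [3064] with the average, 3 [5450] with reference gene scaling, 3 [3382] without both those arrays, and 3 to 6 [2993 to 5335] without 1 array. In 16C against 2C (3 [3238]) it was 0 [0] with actin, 0 [507] with spikes, 0 [1577] with the average, 0 [2042] without both arrays, 1 [2059] with only the arrays compared, 1 [3113] with reference gene scaling, 5 [3336] with the replicate block, and 0 to 5 [1598 to 3964] without 1 array. In 16C against 8C (0 [59]) it was 2 [776] with array weights, 1 [126] without 8C replicate 2, 1 [58] without that array and 16C replicate 3, and otherwise 0. In 4C against 2C (0 [137]) it was 0 under all 25 alternatives. Where a covariate lowered the genes' count, it also lowered the count over all probe sets. Reference gene scaling raised all values in 16C against 2C by 0.252 and in 16C against 8C by 0.15.

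With the actin covariate the slope of HTB11 was 0.080, its 8C against 4C change 0.0034, and the slope of H1.3 0.0084; no other slope or 8C against 4C change turned its sign. The adjusted permutation p lay between 0.0293 and 0.487 for H1.3 minus H1.1, 0.0293 and 0.465 for H1.3 minus H1.2, and 0.0879 and 0.465 for H1.1 minus H1.2 without 1 array. Without both 8C replicate 2 and 16C replicate 3, H1.3 minus H1.2 had adjusted permutation p = 0.0481, while H1.3 minus H1.1 did not pass (0.0679). The replicate block left the counts for 8C against 4C, the F test and the trend at 3, 6 and 6, but not the same genes in the first pair. With it H1.3 did not pass in 8C against 4C or by the F test (limma adjusted p = 0.0631 and 0.0657), while HTB5 passed in 8C against 4C (0.042) and HTB1 by the F test (0.0483). The numbers were not taken to pair arrays: deviations from class means correlated at -0.49 to 0.49 between same-numbered arrays, over 0.1 in 9 of 18 pairs, and 6 of 12 arrays deviated most like one of their own number. The causes were not tested.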

Other observations

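In the 2C, 4C and 16C classes but not in 8C, the array with the highest H1.3 signal had the lowest H2B signals. This pattern was noticed after the values were seen and was not tested. In 3 of the 4 classes (2C, 4C and 16C) replicate 3 had the highest H1.3 signal, 9.64, 8.90 and 9.61, and the lowest signal of all 4 H2B genes. H1.1 was also lowest there in 2C and 4C (-0.44 and -0.46 from its class mean) but highest in 16C (0.14). In 16C replicate 3, H1.3 was 1.3 above its class mean, while HTB11 deviated by -0.45 and HTB5 by -0.30 (log2). In 8C the highest H1.3 signal was that of replicate 2, where HTB11 was at its lowest and HTB1 and HTB5 were at their highest of the class, 5.57 and 5.16. Over the 12 arrays the deviations from class means correlated at r = -0.54 to -0.19 between H1.3 and each H2B gene, whereas those of the 6 pairs of H2B genes correlated at 0.47 to 0.87. By the same measure H1.1 had r = 0.54 to 0.79 with the H2B genes and -0.14 with H1.3, and H1.2 had 0.02 with H1.3. With HTB1, HTB4, HTB5 and HTB11, H1.2 had r = -0.02, 0.53, -0.25 and 0.38, so a negative r with an H2B gene was not limited to H1.3. All of these values share the arrays, with their sort, RNA and amplification.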
